A study of Homo sapiens with 4 samples.

Results

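Matrix metalloproteinases (MMPs) and their tissue inhibitors (TIMPs) were followed in 786-O cells with and without VHL. The genes were chosen by symbol from the deposited count table. Of 10 named genes, 8 were measured, namely MMP1, MMP2, MMP7, MMP14, MMP15, MMP24, TIMP1 and TIMP2, and all 8 were among the 12335 of 12912 genes with enough counts to be tested. MMP3 and TIMP3 were not analysed here. 786-O is an established line from a clear cell renal tumor that has lost VHL function. VHL is the substrate receptor of a ubiquitin ligase. 786-O-Ctrl, also called the controls below, is the VHL-null subline, and 786-O-VHL carries a retroviral vector for HA-tagged wild-type VHL. The labels name the 786-OTR versions of both, which share a reporter of GFP, luciferase and thymidine kinase, and both were grown in RPMI1640 with fetal bovine serum. RNA was sequenced from 2 libraries per group. Each group is a single subline, and nothing in the labels says whether its libraries came from separate cultures, so the p-values measure the spread between these libraries, which may be technical. The sources used here do not say whether the controls carry an empty vector.

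MMPs are zinc-dependent endopeptidases that are made as inactive precursors and that cut collagens, laminins, fibronectin and other proteins of the extracellular matrix. Most are secreted, and the membrane-type members stay on the cell surface, where MMP14 activates the MMP2 precursor in a complex that also contains TIMP2. TIMPs bind the active site of the enzymes. In kidney tumors the balance between both families has been studied for its part in invasion and in the growth of blood vessels.

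The libraries held between 2807779 and 22141263 counts. Both columns of the controls carry 1 replicate number, so they are named by depth (deeper, shallower), and 786-O-VHL replicate 1 is the shallowest of the 4. Levels are given as CPM, each library's counts scaled to the same total with edgeR's TMM factors, and 1 count in 786-O-VHL replicate 1 was worth 0.339 CPM. Differences are log2 fold changes of 786-O-VHL over 786-O-Ctrl with the standard error (SE) implied by edgeR's quasi-likelihood test, and FDR is its p-value adjusted by Benjamini-Hochberg over the 12335 genes. With 2 libraries against 2, an exact permutation test cannot go below 0.333, so the FDR rests on a spread shared between genes. VHL mRNA itself was 42.9 and 43.9 CPM in the controls and 178 and 163 CPM in 786-O-VHL replicates 1 and 2 (log2 fold change 1.96, SE 0.0706, edgeR FDR = 2.86e-19). Counts per gene cannot separate the vector's transcripts from the endogenous ones. All 12 markers of renal epithelium and renal carcinoma had counts, PAX8 and KRT8 among them. The summed level of 7 of 12 fibroblast and pericyte markers was at most 32.8 CPM, that of 2 of 12 leukocyte markers between 2.67 and 14.2 CPM and that of 5 of 10 endothelial markers between 2.37 and 11.1 CPM. The renal markers summed to between 3105 and 4260.3 CPM, with 3 of 12 higher and 6 lower at an edgeR FDR of 0.05. Of all genes tested, 32.6% were higher and 31.9% lower. The renal, leukocyte and endothelial sums were lower in both 786-O-VHL libraries and the fibroblast sum was higher, and their part in the results was not tested. Both groups are sublines of the same line, and bulk RNA cannot tell fewer cells of a kind from less RNA per cell. The sums also follow single genes. On average VIM fell from 1684 to 730 CPM and CA12 from 382 to 56.4 CPM, while EPAS1 rose from 324 to 835 CPM. CSF1R, a leukocyte marker, fell from 13.6 to 2.94 CPM.

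Promoter sequence was available for 5 of the 8 genes (MMP7, MMP14, MMP15, MMP24 and TIMP1) and is shown for the gene that rose most and for both that fell. MMP10, a relative of MMP7 in the same gene cluster, is printed for comparison. Each window runs from 250 bases before to 50 bases after the RefSeq start site in GRCh38.p14, 5′ to 3′ on the strand of the gene. Capitals mark matches on either strand to 5 motifs. These are the AP-1 motif TGAGTCA with its reverse complement, the TATA box TATAAA, the TCF/LEF motif CTTTGAT, the core of the hypoxia response element in its forms ACGTG and also GCGTG, and lastly the GC box GGGCGG.
MMP7, chr11:102530698-102530997, minus strand: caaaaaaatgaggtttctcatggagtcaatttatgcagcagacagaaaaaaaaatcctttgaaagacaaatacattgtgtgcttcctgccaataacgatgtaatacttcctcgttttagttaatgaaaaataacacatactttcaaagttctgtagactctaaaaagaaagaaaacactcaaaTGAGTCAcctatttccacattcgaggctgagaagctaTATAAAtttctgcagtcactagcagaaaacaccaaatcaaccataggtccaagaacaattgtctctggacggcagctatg
MMP10, chr11:102780579-102780878, minus strand: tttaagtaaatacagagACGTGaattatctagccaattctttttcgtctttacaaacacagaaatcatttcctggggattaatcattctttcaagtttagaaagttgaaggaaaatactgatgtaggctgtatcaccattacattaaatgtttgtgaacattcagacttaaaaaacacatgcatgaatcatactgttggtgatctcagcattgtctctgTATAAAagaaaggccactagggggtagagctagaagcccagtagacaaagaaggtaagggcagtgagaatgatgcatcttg
MMP14, chr14:22836335-22836634, plus strand: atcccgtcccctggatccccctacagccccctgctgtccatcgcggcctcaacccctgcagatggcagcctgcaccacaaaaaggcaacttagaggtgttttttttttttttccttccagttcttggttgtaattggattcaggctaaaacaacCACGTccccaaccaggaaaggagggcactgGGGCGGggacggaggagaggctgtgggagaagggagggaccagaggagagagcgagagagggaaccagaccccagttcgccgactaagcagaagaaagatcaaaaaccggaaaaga
TIMP1, chrX:47582186-47582485, plus strand: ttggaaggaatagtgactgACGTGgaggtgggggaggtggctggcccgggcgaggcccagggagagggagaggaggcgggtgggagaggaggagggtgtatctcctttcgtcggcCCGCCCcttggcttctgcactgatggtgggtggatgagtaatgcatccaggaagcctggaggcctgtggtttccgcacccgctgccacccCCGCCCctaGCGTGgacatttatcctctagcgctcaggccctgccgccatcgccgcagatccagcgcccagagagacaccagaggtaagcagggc

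The MMP7 window is AT-rich (35.7% G and C, against a median of 58.7% over all promoters) and holds a TATA box 30 bases and an AP-1 match 67 bases before the start site. These letters occur in 11.5% and 4.95% of 35116 promoters of the same length. The MMP10 window also holds a TATA box, 31 bases before the start, and a hypoxia core. MMP14 and TIMP1 have more G and C (55% and 65%), no TATAAA, and GC boxes. The MMP14 window has 1 hypoxia core and that of TIMP1 has 2, letters that 48.4% of all promoters hold. The windows of MMP15 and MMP24, with 75.3% and 80% G and C, held 5 and 3 GC boxes and none of the other motifs. GC boxes occur in 45.0% of all promoters, and CTTTGAT, found in 2.62% of them, occurred in none of these windows. Close variants of CTTTGAT, such as the CTTTGAA in the MMP7 window, were not searched for. A match is a description of the letters and was not tested as a binding site.

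After VHL restoration, mRNA of 5 of the 6 metalloproteinases rose and that of MMP14 fell, while TIMP2 rose and TIMP1 fell. All 8 genes passed an edgeR FDR of 0.05, with 6 higher and 2 lower. The background was high, since 64.5% of all genes tested passed, 32.6% as higher and 31.9% as lower. The median log2 fold change was 0.72 over the 8 genes and 0.02 over all genes tested. In every one of the 8 the libraries of the groups did not overlap, which also held for 80.0% of the genes tested. Only MMP7 changed by more than 4-fold with an FDR under 0.01, a threshold passed by 4.46% of genes. With scaling by library totals alone, higher genes made up 62.1% of all calls in place of 50.5%, and the 8 genes were again 6 higher and 2 lower.

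**Figure D1:**
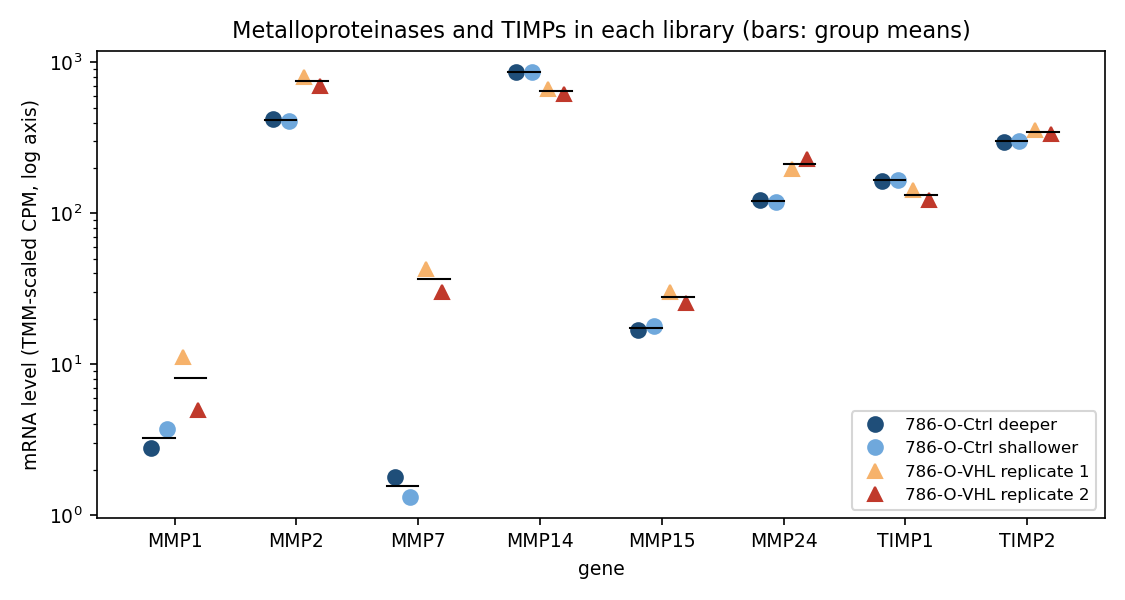
Level of each measured metalloproteinase and TIMP in CPM (log axis) in the 2 786-O-Ctrl libraries (circles) and the 2 786-O-VHL libraries (triangles), with a bar at each group mean. MMP7 stood at 1.33 to 1.80 CPM in the controls and at 30.2 to 43.1 CPM in 786-O-VHL, while MMP14 and TIMP1 were lower in both 786-O-VHL libraries.

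MMP7, or matrilysin, is a small secreted metalloproteinase without the hemopexin domain of its relatives, and it is made mainly by epithelial cells. MMP7 (ENSG00000137673.9) spans 102391239 to 102401481 of chromosome 11 (GRCh37, minus strand), and no other annotated gene crosses it. It had 38 and 20 counts in the controls, deeper library first, or 1.80 and 1.33 CPM. With VHL it had 127 and 508 counts in replicates 1 and 2, or 43.1 and 30.2 CPM. The groups were far apart in spite of the low counts in 786-O-Ctrl. The log2 fold change was 4.40 (SE 0.205, edgeR FDR = 7.83e-17), a 21.0-fold higher level that ranked 37th from the top among the genes tested. With each library left out in turn it stayed between 4.23 and 4.74.

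MMP1, the interstitial collagenase, cuts fibrillar collagens. MMP1 (ENSG00000196611.5) lies on the minus strand of chromosome 11 from 102660132 to 102668891, and the pseudogene WTAPP1 on the opposite strand shares 8.14% of its exon bases. Its mRNA was scarce, with 59 and 56 counts in the controls (2.80 and 3.72 CPM) and 33 and 84 with VHL (11.2 and 4.99 CPM). The 786-O-VHL libraries differed from each other by more than replicate 2 differed from the shallower control. The log2 fold change of 0.99 (SE 0.296, edgeR FDR = 0.00457) passed the test, and its size depended on the library: it was 0.64 without 786-O-VHL replicate 1 (FDR = 0.0401) and 1.80 without 786-O-VHL replicate 2 (FDR = 0.000208). After all libraries were thinned to the depth of the shallowest, it was 1.54.

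MMP2, gelatinase A, degrades denatured collagen and the type IV collagen of basement membranes. MMP2 (ENSG00000087245.13) lies on the plus strand of chromosome 16 from 55423612 to 55540603. Its mRNA was 423 and 412 CPM in the controls and 805 and 704 CPM in 786-O-VHL replicates 1 and 2. Both 786-O-VHL libraries lay well above both controls, and the difference between the groups was larger than that within them. The group means were 418 ± 7.83 and 755 ± 71.9 CPM (SD, n = 2 each), and the log2 fold change was 0.84 (SE 0.0652, edgeR FDR = 4.91e-12). A further annotated gene model on the same strand shares 3.70% of the exon bases of MMP2.

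MMP14, the membrane-type enzyme that activates the MMP2 precursor, was the 1 of the 6 chosen metalloproteinases that fell. MMP14 (ENSG00000157227.13) lies on the plus strand of chromosome 14 from 23305769 to 23318250, with no annotated gene across it. Its mRNA was 859.8 and 865 CPM in the controls and 671 and 615 CPM in 786-O-VHL replicates 1 and 2. The controls were nearly equal, and both 786-O-VHL libraries were lower. The log2 fold change was -0.43 (SE 0.0614, edgeR FDR = 6.4e-07), or 0.742 of the level in 786-O-Ctrl. MMP14 and MMP2, whose products act in sequence, therefore changed in opposite directions at the mRNA level.

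MMP15 and MMP24, which encode further membrane-type enzymes, rose. MMP15 (ENSG00000102996.5), on the plus strand of chromosome 16 from 58059658 to 58080805, was at 17.0 and 17.8 CPM in the controls and at 30.2 and 25.3 CPM in 786-O-VHL replicates 1 and 2 (log2 fold change 0.61, SE 0.123, edgeR FDR = 8.66e-05). MMP24 is best known from the nervous system, where its product cleaves cadherin and other surface proteins. MMP24 (ENSG00000125966.10), on the plus strand of chromosome 20 from 33814493 to 33864801, was at 123 and 119.6 CPM in the controls and at 196 and 229 CPM in 786-O-VHL replicates 1 and 2 (log2 fold change 0.84, SE 0.0689, edgeR FDR = 1.89e-11). In both genes the lower 786-O-VHL library was above the higher control. MMP24OS, a gene on the opposite strand that shares 18.4% of the exon bases of MMP24, was at 53.2 CPM in the controls and 52.8 CPM in 786-O-VHL on average (log2 fold change 0.04, edgeR FDR = 0.662). The use of strand in the counting is not given in the sources used here, so reads in the shared bases could belong to either gene.

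TIMP1 and TIMP2 are secreted inhibitors that bind most metalloproteinases, though TIMP1 inhibits the membrane-type enzymes poorly. TIMP1 (ENSG00000102265.12) lies on the plus strand of chromosome X from 47441807 to 47446188, within a region that SYN1 spans on the opposite strand without sharing exon bases. Its mRNA was 165 and 167 CPM in the controls and 143 and 124 CPM in 786-O-VHL replicates 1 and 2. Both 786-O-VHL libraries were below the controls, with a log2 fold change of -0.35 (SE 0.0696, edgeR FDR = 7.08e-05). The fall was smaller without 786-O-VHL replicate 2 (log2 fold change -0.22, FDR = 0.0247) and with scaling by library totals (-0.22, FDR = 0.00688).

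TIMP2 (ENSG00000035862.12) lies on the minus strand of chromosome 17 from 76849059 to 76921469. CEP295NL on the same strand shares 3.61% of its exon bases, and a long non-coding RNA gene on the opposite strand shares 5.91%. TIMP2 was at 299 and 302 CPM in the controls and at 358 and 338 CPM in 786-O-VHL replicates 1 and 2. The libraries did not overlap, but the change was the smallest of the 8, a log2 fold change of 0.20 (SE 0.062, edgeR FDR = 0.00554). The call was lost when either the deeper or the shallower 786-O-Ctrl library was left out (FDR = 0.134 and 0.11), with nearly the same fold change. With library totals it was 0.34.

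The wider family moved in both directions. Of 17 further family genes, TIMP4 among them, 8 had counts and 7 could be tested, with 4 higher, 2 lower and a median log2 fold change of 1.30. The shares over all genes tested were 32.6% higher and 31.9% lower. Each of these family genes was at or below 13.2 CPM in every library. The higher ones were MMP10, MMP17, MMP19 and TIMP4, and MMP9 and MMP13 were lower. MMP19, a secreted enzyme of wide tissue distribution, was at 4.04 and 4.05 CPM in the controls and 13.2 and 8.97 CPM in 786-O-VHL replicates 1 and 2 (log2 fold change 1.30, SE 0.221, edgeR FDR = 8.98e-06). MMP17, which is anchored to the membrane through a lipid, was at 1.80 and 2.33 CPM against 5.77 and 6.06 CPM (log2 fold change 1.55, SE 0.276, edgeR FDR = 1.72e-05).

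MMP13, a collagenase, was at 9.21 and 9.24 CPM in the controls and fell to 3.39 and 3.09 CPM (log2 fold change -1.55, SE 0.228, edgeR FDR = 9.95e-07). MMP9, gelatinase B, was at 7.22 and 5.58 CPM against 3.39 and 1.84 CPM (log2 fold change -1.61, SE 0.294, edgeR FDR = 2.62e-05), so the gelatinases MMP2 and MMP9 changed in opposite directions. MMP10, a stromelysin, had 5 counts over both 786-O-Ctrl libraries and 18 over both 786-O-VHL libraries, a rate 6.57 times as high with an exact 95% counting interval from 2.35 to 22.6. TIMP4 had 10 and 12 counts against 4 and 30 (log2 fold change 1.46, SE 0.475, edgeR FDR = 0.0088). MMP16, a membrane-type enzyme, did not pass (log2 fold change 0.17, SE 0.197, FDR = 0.453), and MMP25 had 15 and 7 counts against 1 and 3 and was not tested. The rate of MMP25 in 786-O-VHL was 0.332 times that in 786-O-Ctrl, with an exact 95% counting interval from 0.0831 to 0.977. Without 786-O-VHL replicate 2 the calls of MMP9 (log2 fold change -0.94, FDR = 0.0961) and TIMP4 (FDR = 0.383) were lost, and MMP10 had too few counts to be tested. Without the deeper 786-O-Ctrl library the calls of MMP10 (FDR = 0.0687) and TIMP4 (FDR = 0.181) were lost. MMP17 and MMP19 were the 2 genes still called higher in each case. DESeq2 did not call TIMP4 (FDR = 0.171), and the calls of MMP9 (-0.69, FDR = 0.219) and MMP17 (0.83, FDR = 0.103) were lost after thinning.

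**Figure D2:**
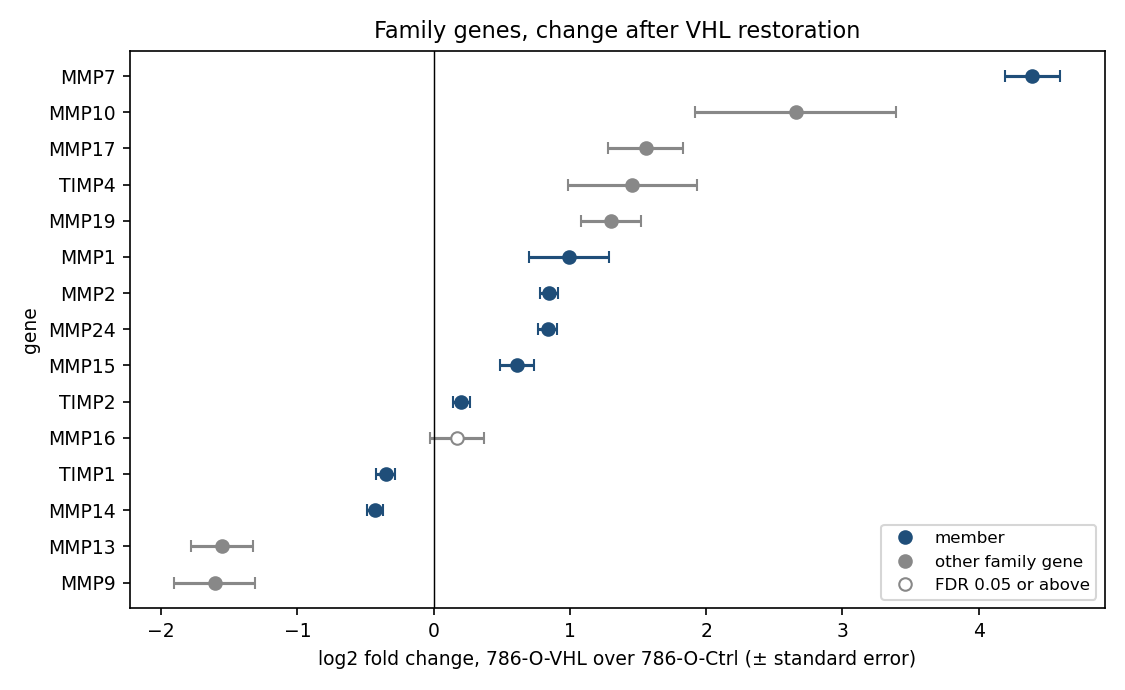
Log2 fold change of 786-O-VHL over 786-O-Ctrl with its standard error for the 8 measured genes (blue) and the other family genes that could be tested (grey), where an open circle marks an FDR of 0.05 or above. MMP7 lies farthest to the right at 4.40, MMP9 and MMP13 lie farthest to the left, and MMP16 is the open circle.

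Levels of different genes were compared after division by the length of their merged annotated exons. In 786-O-Ctrl the order was MMP14, TIMP1, MMP2, TIMP2, MMP24, MMP15, MMP1 and MMP7, from 187 to 0.675 CPM per kb. In 786-O-VHL it was MMP2, MMP14, TIMP1, TIMP2, MMP24, MMP7, MMP15 and MMP1, from 160.3 to 2.96 CPM per kb. No neighbors in either order overlapped in range, though TIMP2 and MMP24 came close in 786-O-VHL, with 54.4 to 57.6 against 44.8 to 52.3 CPM per kb. MMP2 rose from the third to the first place and MMP7 from the last to the sixth.

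Of the summed level per kb of 13 metalloproteinases, MMP14 held 58.4% and 59.2% in the controls and 36.3% and 36.7% in 786-O-VHL replicates 1 and 2. MMP2 held 28.3% and 27.7% against 42.9% and 41.3%. MMP24 went from 8.84% and 8.64% to 11.2% and 14.4%, and MMP7 from 0.244% and 0.181% to 4.65% and 3.59%. The sum itself was 317 ± 1.49 CPM per kb in the controls and 381 ± 26.2 in 786-O-VHL (SD, n = 2 each). The sum over TIMP1, TIMP2 and TIMP4 was 164 ± 1.48 and 149.5 ± 11.6 CPM per kb (SD, n = 2 each). The ratio of the metalloproteinase sum to the TIMP sum was 1.96 and 1.92 in the controls and 2.53 and 2.56 in 786-O-VHL. These values rest on exon lengths of an annotation that can differ from the one used for counting.

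**Figure D3:**
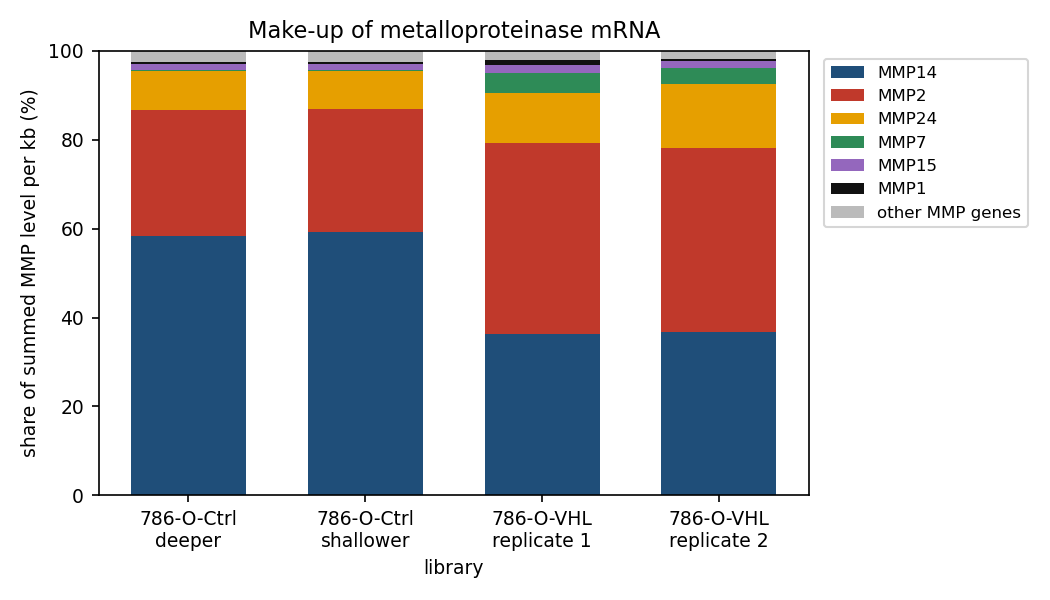
Share (%) of each metalloproteinase in the summed level per kb of exon of 13 metalloproteinase genes, 1 bar per library. The share of MMP14 is near 59% in both controls and near 37% in both 786-O-VHL libraries, where MMP2 is the largest part.

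Ratios between an enzyme and an inhibitor within the same library do not depend on scaling. The log2 ratio of counts of MMP14 to TIMP2 was 1.52 in both controls and 0.91 and 0.87 in 786-O-VHL replicates 1 and 2, so that it fell by 0.63. That of MMP2 to TIMP2 was 0.50 and 0.45 in the controls and 1.17 and 1.06 in 786-O-VHL, a difference of 0.64. MMP1 to TIMP1 was at -5.88 and -5.49 against -3.68 and -4.63. In each pair the groups did not overlap. The first 2 differences were many times the spread between replicates, whose largest SD was 0.0792, and that of MMP1 to TIMP1, 1.53, stood beside an SD of 0.674 in 786-O-VHL. No test was made, since 2 libraries against 2 cannot pass 0.05 in an exact permutation test.

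**Figure D4:**
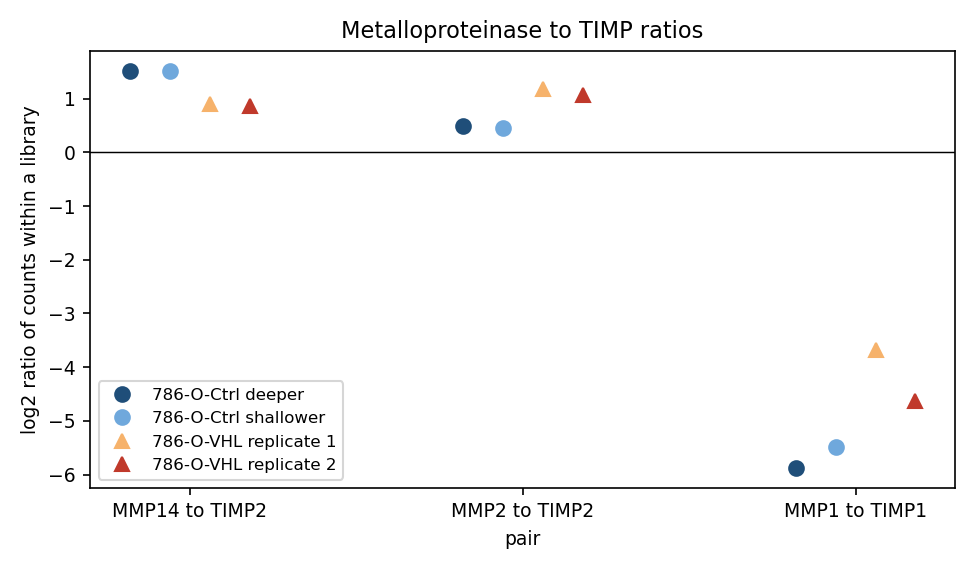
Log2 ratio of the counts of a metalloproteinase to those of a TIMP within each library, for 3 pairs. MMP14 to TIMP2 is lower and MMP2 to TIMP2 higher in both 786-O-VHL libraries (triangles) than in both 786-O-Ctrl libraries (circles), and the MMP1 to TIMP1 triangles are the most spread.

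MMP7, MMP10, MMP1 and MMP13 belong to a cluster of metalloproteinase genes at 11q22, transcribed from the minus strand. Along the chromosome in that order, their start sites lie 249.9, 267 and 425 kb beyond that of MMP7, and their log2 fold changes were 4.40, 2.66, 0.99 and -1.55. The direction thus differed within the cluster, with 3 genes higher and MMP13, at the far end, lower. The values of MMP10 (SE 0.737, 5 against 18 counts) and MMP1 (SE 0.296) rest on few counts. The flanking genes changed little. TMEM123, the nearest before MMP7, and BIRC3, an inhibitor of apoptosis, did not pass the test (log2 fold changes -0.08 and -0.07). BIRC2 was at 0.27 (SE 0.0663, edgeR FDR = 0.000803), YAP1, a coactivator of the Hippo pathway, at 0.16, and DCUN1D5, on the far side, at -0.42 (SE 0.0768, edgeR FDR = 2.53e-05). Of 8 genes on either side that were tested, 4 were higher and 1 was lower, with a median log2 fold change of 0.18. Over all genes tested, 32.6% were higher and 31.9% lower. CASP1, the inflammatory caspase, was the exception in size. It lies 2504 kb from MMP7, and it had 5 and 5 counts in the controls and 17 and 97 counts in 786-O-VHL (log2 fold change 4.33, SE 0.41, edgeR FDR = 3.28e-10). CASP4 was at 0.30 (SE 0.0947, edgeR FDR = 0.00737). The calls of BIRC2 and CASP4 were lost without the deeper 786-O-Ctrl library (FDR = 0.0612 and 0.0794), where 1 of the 8 was higher. TMEM123, BIRC3 and YAP1 were chosen after their values were seen. Without 786-O-VHL replicate 2 CASP4 was at 0.45, and after thinning BIRC2 and CASP4 were at 0.17 and 0.17 and not called.

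**Figure D5:**
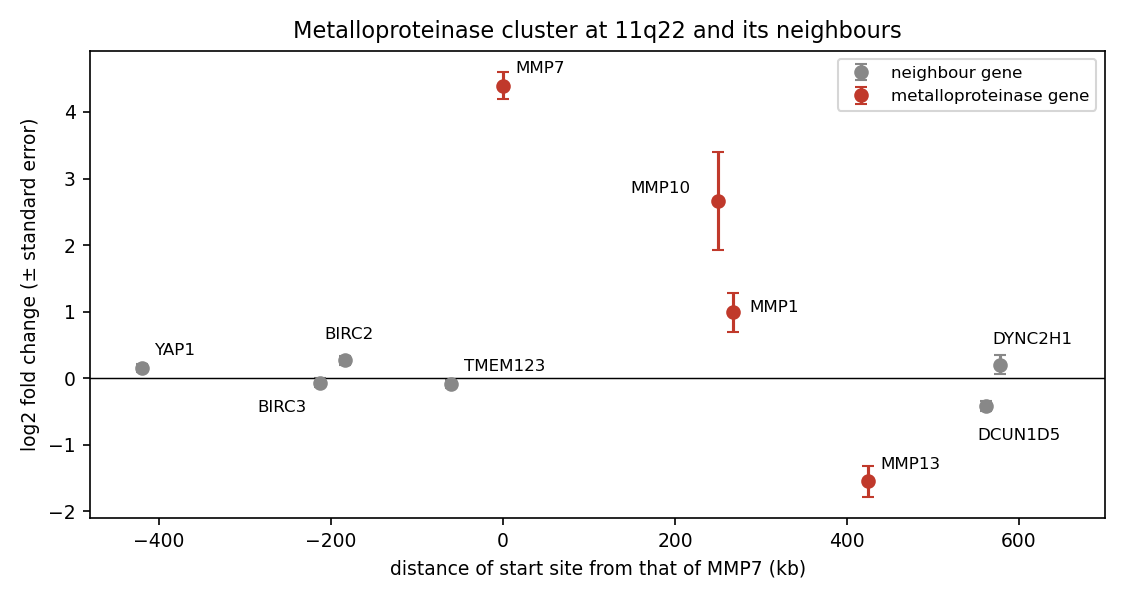
Log2 fold change with its standard error against the distance of the start site from that of MMP7 in kb, for the metalloproteinases of 11q22 (red) and the nearest tested genes beside them (grey). The metalloproteinases range from -1.55 for MMP13 to 4.40 for MMP7, while the grey neighbors shown stay between -0.42 and 0.27. CASP4 (0.30, at 2438.6 kb) and CASP1 (4.33, at 2504.5 kb) lie beyond the range shown.

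Of 16 tested genes whose products activate, induce, inhibit or clear metalloproteinases, 3 were higher, 8 lower and 5 not called, against 32.6% higher and 31.9% lower among all genes. Their median log2 fold change was -0.17. SDC1, a syndecan that docks enzymes at the cell surface, fell to 0.361 of its level (log2 fold change -1.47, SE 0.0669, edgeR FDR = 4.44e-17). CD44, the hyaluronan receptor that holds MMP14 and MMP9 at the membrane, fell from 686 and 681 CPM to 359.9 and 325 CPM (log2 fold change -1.01, SE 0.0641, edgeR FDR = 7.22e-14). PCSK7, a proprotein convertase, fell by 0.90 on the log2 scale, and FURIN, the convertase that processes membrane-type precursors, was also lower (log2 fold change -0.44, SE 0.0664, edgeR FDR = 1.51e-06). CLDN1, a tight junction protein, was 2.66 times as high (log2 fold change 1.41, SE 0.063, edgeR FDR = 2.96e-17). LRP1, the endocytic receptor that clears MMP2 and TIMP complexes, was at 0.31 (SE 0.0685, edgeR FDR = 0.000222), and BSG, an inducer of metalloproteinases, was at 0.18 (SE 0.0584, edgeR FDR = 0.00961). The call of BSG was lost without either 786-O-Ctrl library (FDR = 0.172 and 0.262), and with library totals BSG was at 0.31. RECK, a membrane-anchored inhibitor, did not pass (log2 fold change 0.03, SE 0.118, FDR = 0.821). TFPI2, a further inhibitor in the list, was lower (log2 fold change -0.56, SE 0.0665, edgeR FDR = 2.97e-08). FURIN, RECK and TFPI2 were chosen after their values were seen.

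Invadopodia are the protrusions to which MMP14 is delivered. Of 20 tested genes of these structures and of MMP14 transport, 5 were higher and 10 lower, with a median log2 fold change of -0.15. Over all genes tested, 32.6% were higher and 31.9% lower. CTTN, the actin-binding protein cortactin, fell to 0.503 of its level (log2 fold change -0.99, SE 0.067, edgeR FDR = 2.89e-13). The small GTPases RAB27A and RAB8A, which act in exocytosis, fell by 0.89 and 0.79 on the log2 scale. MTCL1, a microtubule crosslinker, RAB5A of early endosomes and WASL, an activator of actin branching, rose by 0.73, 0.53 and 0.52. With library totals, 8 of the 20 were higher.

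The related proteases of the ADAM and ADAMTS families were mixed, beside 32.6% higher and 31.9% lower over all genes tested. Of 7 tested ADAM genes, 1 was higher and 4 were lower, with a median of -0.28. ADAM10, a sheddase of Notch and cadherins, rose (log2 fold change 0.44, SE 0.0617, edgeR FDR = 5.48e-07), while ADAM15 and ADAM9 fell by 0.49 and 0.48. ADAM12 was at -0.28 (FDR = 0.00335), and its call was lost with DESeq2 (FDR = 0.0528), with library totals (-0.15, FDR = 0.11), after thinning (FDR = 0.113), without the deeper 786-O-Ctrl library (FDR = 0.104) and without 786-O-VHL replicate 2 (FDR = 0.0522). Without the deeper 786-O-Ctrl library, 2 ADAM genes were lower. Of 12 tested ADAMTS genes, 5 were higher and 4 lower, with a median of 0.03. ADAMTS15, which degrades proteoglycans, was at 11.8 and 12.7 CPM in the controls and at 88.2 and 96.5 CPM in 786-O-VHL (log2 fold change 2.95, SE 0.0939, edgeR FDR = 2.23e-20). ADAMTS10 and ADAMTS14 rose by 3.11 and 2.24. ADAMTS2, a procollagen peptidase, had 100 and 82 counts against 1 and 17 (log2 fold change -2.48, SE 0.361, edgeR FDR = 8.67e-07), and the value was -3.87 without 786-O-VHL replicate 2. ADAMTS3 was at -0.58 (FDR = 4.75e-05) and ADAMTS6 at -0.82 (FDR = 0.00292). The call of ADAMTS6 was lost with DESeq2 (FDR = 0.0634), after thinning (-0.44, FDR = 0.343), without the deeper 786-O-Ctrl library (FDR = 0.0808) and without 786-O-VHL replicate 2 (FDR = 0.156), where 2 ADAMTS genes were lower.

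Among matrix proteins that metalloproteinases cut, 8 of 16 tested genes were higher and 5 lower. Their median change was 0.16 on the log2 scale. For comparison, 32.6% of all 12335 genes tested were higher and 31.9% lower. FN1, or fibronectin, rose from 7311 and 7063 CPM to 15503 and 13800.2 CPM (log2 fold change 1.03, SE 0.0618, edgeR FDR = 2.32e-14). The laminin chains LAMA5 and LAMB1 rose by 1.94 and 1.02. COL5A1, a fibrillar collagen chain, fell by 2.15, NID1, or nidogen, by 1.65 and the laminin chain LAMB3 by 1.37. NID1 had 6 counts in 786-O-VHL replicate 1, and its log2 fold change was -2.31 without 786-O-VHL replicate 2. The type IV collagen chains COL4A1 and COL4A2, a substrate of MMP2, were at 1.00 and 0.82 and were chosen after their values were seen.

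Transcription factors known to act on metalloproteinase genes were divided. Of 22 tested, 9 were higher and 5 lower, with a median of 0.12, beside 32.6% higher and 31.9% lower over all genes. JUNB, an AP-1 subunit, rose from 105 and 109 CPM to 257 and 292 CPM (log2 fold change 1.38, SE 0.0679, edgeR FDR = 2.51e-16). Other AP-1 subunits were divided. FOSL2 rose by 0.75, FOSL1 fell by 0.24 (edgeR FDR = 0.00389), and JUN, JUND and FOS were not called. FOSL1, FOSL2, JUN, JUND and FOS were chosen after their values were seen. The epithelial ETS factor ELF3 rose by 1.23, and FOSB was at 1.34 (SE 0.441, edgeR FDR = 0.00964) on at most 30 counts in a library. The call of FOSB was lost with DESeq2 (FDR = 0.0791), without the shallower 786-O-Ctrl library (FDR = 0.0838) and without 786-O-VHL replicate 2 (FDR = 0.0553). The NF-kB subunits NFKB1 and RELA fell by 0.51 and 0.30, and ETS2 fell by 0.41. RELA was at -0.17 with library totals, where 3 of the 22 were lower.

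The genes closest in profile to MMP7 over the 4 libraries, by the root mean square difference of centered log2 CPM, were OGDHL (0.149), CA11 (0.205) and TXNIP (0.226), with log2 fold changes of 4.40, 4.75 and 4.35. Closest to MMP14 were UBE2J2 (0.0063), EMC1 (0.00664) and C1orf174 (0.0104), with log2 fold changes of -0.44, -0.43 and -0.48. With 4 libraries in 2 groups, this likeness is mostly that of the fold change.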

How the data were processed

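Each of the VHL-null and VHL-restored groups had 2 RNA libraries, made with Illumina TruSeq kits. The authors aligned reads to hg19 and deposited raw counts per gene. The submitters' processing notes name CASAVA and STAR, and the counter, its annotation and its use of strand have no statement in the labels or methods used. The study's own differential test was DESeq2. Both 786-O-Ctrl columns carry the same replicate number. For a repeated symbol, the identifier with most counts was used.

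The main test was that of edgeR 4.0.16 under R 4.3.3 (filterByExpr at a minimum count of 10, TMM, quasi-likelihood F test, group as the only term, Benjamini-Hochberg over 12335 genes). The common dispersion was 0.00186. Coordinates, overlaps and merged exon lengths came from GENCODE 44 on GRCh37, where all 25 identifiers looked up were found. Promoters came from RefSeq (GRCh38.p14). The counting intervals are exact conditional binomial ones and cover counting error only.

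The genes and lists were chosen with earlier results of these data known. Named genes were the members, the other family genes with counts, VHL, at most 3 genes per direction of each other list with the largest change past the FDR, and the 3 nearest profiles to the member with the smallest p in each direction. Cell type markers fell outside this rule, and VIM, CA12, EPAS1 and CSF1R were chosen after their values were seen. The fits were tested on simulated data. Alternatives were DESeq2 1.42.0, limma-voom (limma 3.58.1), RLE factors, library totals, no filter, at least 10 counts in every library, thinning, and each library left out.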

Additional observations from a re-analysis of the deposited data

How the results depend on the processing

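No paired analysis was possible because both 786-O-Ctrl columns carry the same replicate number. The number of the 8 genes past an FDR of 0.05 stayed at 6 higher, or 5 where a 786-O-Ctrl library was left out, and at 2 lower under every alternative run. TIMP2 lost its call without the deeper or the shallower 786-O-Ctrl library, and left-out libraries gave it log2 fold changes between 0.17 and 0.25. No fold change of the 8 genes reversed. With library totals the median of all genes moved by 0.13 on the log2 scale, to 0.15, and 2 ADAM genes were higher and 2 lower, 8 genes of MMP14 delivery were higher and 3 transcription factors were lower. Of the other family genes, 2 were higher with at least 10 counts in every library, a filter that MMP10 and TIMP4 did not pass. After thinning, where MMP10 and TIMP4 were not tested, 1 was higher and 1 lower, 2 ADAM and 2 ADAMTS genes were lower, and 1 gene beside the 11q22 cluster was higher. With DESeq2, 2 genes beside the cluster were higher. Leaving out libraries gave 2 to 4 higher and 1 to 2 lower other family genes, 2 to 4 lower ADAM genes, 2 to 4 lower ADAMTS genes and 1 to 4 higher genes beside the cluster. Over all genes, calls ranged from 2816 to 5077 higher and from 2828 to 4082 lower. A fit that leaves out a library assumes that the lone library of a group varies like the others. The cause was not tested. Depth limits genes under a few CPM, since 3 counts were 1.02 CPM in 786-O-VHL replicate 1.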
